A study of Mus musculus with 6 samples.

Results

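The 10 genes described here encode fibroblast growth factor (FGF) ligands and their receptors. They were taken by gene symbol from the 53342 genes of the expression table, and comprise 6 ligands (Fgf1, Fgf2, Fgf7, Fgf9, Fgf10 and Fgf18) and the 4 signalling receptors (Fgfr1, Fgfr2, Fgfr3 and Fgfr4). RNA sequencing had been carried out on dental pulp, the soft connective tissue inside the tooth, from 3 wild-type (WT) mice and 3 Mmp13-/- mice, which lack the collagenase matrix metalloproteinase 13 in every tissue. All mice were C57BL/6 and 3 months old, and no treatment is named. The study asked how loss of MMP13 altered gene expression in the pulp, and genotype is the factor that the labels compare. The growth protocol of all 6 samples names molars, the sample titles name molars for WT only, and the study's methods name incisors, a tooth that grows throughout life in mice, so the tooth type is uncertain and a difference in tooth type between the genotypes cannot be told apart from genotype. Replicate numbers follow the labels, which are 2, 4 and 5 for WT and 1, 2 and 6 for Mmp13-/-.

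FGF ligands bind receptor tyrosine kinases together with heparan sulfate chains on the cell surface, and the activated receptor passes the signal through adaptor proteins to the Ras, Raf, MEK and ERK kinases. Signalling then switches on its own inhibitors, among them the Sprouty, Spred and Dusp families. In the developing tooth, FGFs carry signals in both directions between epithelium and mesenchyme, and Fgf10 from the mesenchyme is known for maintaining the epithelial stem cells of the mouse incisor. Splice forms of Fgfr1, Fgfr2 and Fgfr3 differ in which ligands they bind, and the gene totals used here do not separate them.

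Library totals were 28442935 to 29980236 counts in WT and 21561420 to 26547120 in Mmp13-/- samples. Mmp13 itself had 1069, 1139 and 827 counts in WT against 10, 33 and 40 in Mmp13-/- samples, so it was low in every Mmp13-/- library. The summed level of 1452 odorant and vomeronasal receptor genes, which pulp should not express, was 17.8 to 20.8 CPM (counts scaled to the same library total) in WT and 307.6 to 1197 in Mmp13-/- samples, with the highest value in Mmp13-/- replicate 6, which also had the smallest total. The fold change of a gene also followed the GC content of its exons (Spearman rho = -0.53 across 24492 genes, which are not independent replicates), and differences are therefore given as counted and, for the members and the genes named beside them, also after a GC correction of every library. All 16 odontoblast markers were detected in every library. For the marker sums, and wherever CPM is used below, counts were scaled to the library total after TMM normalization. The summed level of the odontoblast markers was 55932 to 62674 CPM in WT and 17791 to 23486 in Mmp13-/- samples, a sum carried mostly by the collagen genes Col1a1 and Col1a2. Of these 16 markers 8 were called lower and 4 higher, the dentin and bone matrix genes Dspp (log2 fold change 1.13), Ibsp (1.56) and Mepe (2.35) and the peptidase gene Phex (1.68), and with GC correction 2 were called lower and 4 higher (edgeR adjusted p under 0.05). The 12 skeletal muscle markers summed to 59572 to 69070 CPM in WT and 10729 to 25209 in Mmp13-/- samples, and 16 neutrophil and marrow markers to 650.4 to 1088 and 2018 to 4240. In bulk tissue, fewer cells of a type and less RNA per cell cannot be told apart, and the part of these cell type differences, of the GC relation and of the receptor-gene background in the results below was not tested.

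All 10 FGF genes passed the filter on low counts, and 2 of them were called different between genotypes (edgeR quasi-likelihood test, Benjamini-Hochberg adjusted p under 0.05 over 24534 genes). Both were receptors, Fgfr1 and Fgfr3, and both were lower in Mmp13-/- pulp by over 2-fold. Among all genes tested, 51.6% were called and 24.3% were called lower, 30.1% were called with a change over 2-fold and 9.68% were called lower by over 2-fold. By type, 2 of 4 receptors and 0 of 6 ligands were called. Counts among 10 genes are too small to set against these shares. After GC correction, 2 of the 10 were again called, against 36.0% of all genes, both of them lower, against 13.3%, but the pair was then Fgfr1 and Fgf7. Samples of the 2 genotypes did not overlap for 2 of the 10 genes, Fgfr1 and Fgfr3, against 60.9% of all genes.

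**Figure D1:**
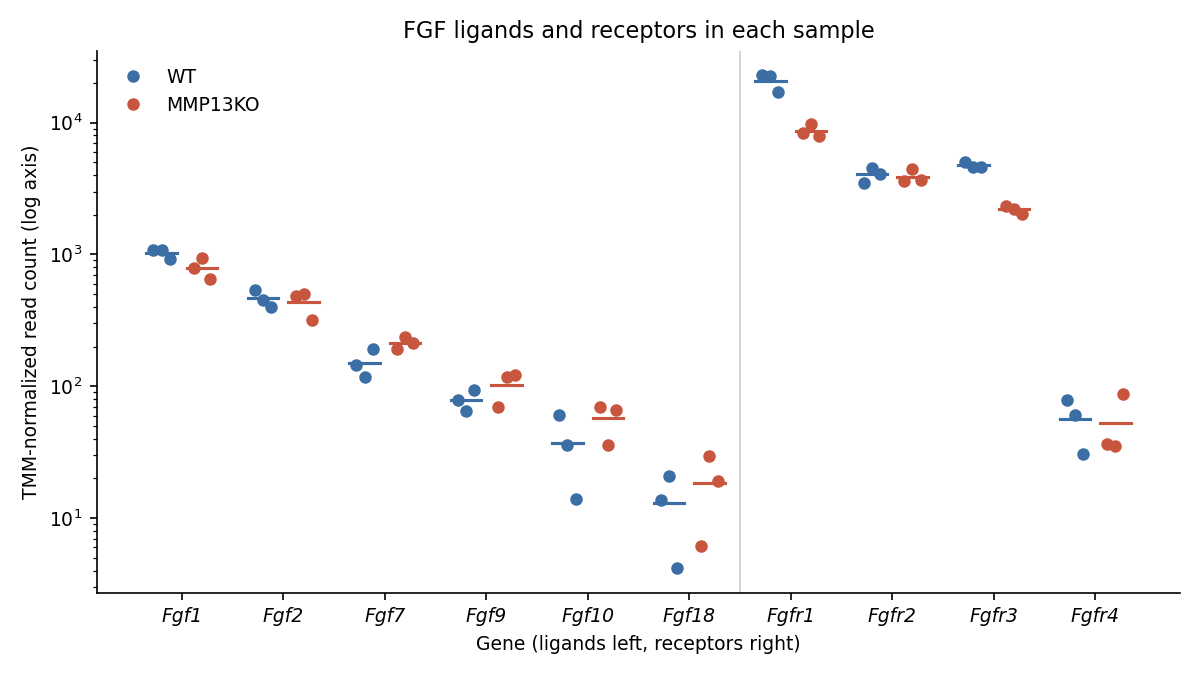
TMM-normalized read counts (log axis) of the 6 ligands and 4 receptors in each of the 3 WT and 3 Mmp13-/- samples (MMP13KO), with points for samples and short lines for group means. The Fgfr1 and Fgfr3 points of the genotypes are separated, and those of the other 8 genes overlap.

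The receptors were the more abundant side of the pathway. Per kilobase of exon in WT pulp, Fgfr1 was the highest at 2110 ± 324 normalized counts (SD, n = 3), followed by Fgfr3 at 666.5 ± 32.5, Fgfr2 at 391.3 ± 52.1, the ligand Fgf1 at 188.4 ± 16.5, Fgf2 at 68.3 ± 9.87 and Fgf7 at 46.6 ± 11.4. The remaining genes lay lower, with Fgf9 at 17.0 ± 3.22, Fgfr4 at 16.0 ± 6.87, Fgf18 at 10.9 ± 7.12 and Fgf10 at 8.01 ± 5.11. The spreads of these last 4 overlapped, apart from those of Fgf9 and Fgf10. In Mmp13-/- pulp, Fgfr2 at 377.0 ± 43.5 lay above Fgfr3 at 306.5 ± 22.6, the reverse of their order in WT, and Fgfr1 remained the highest at 878.3 ± 103. With GC correction Fgfr2 and Fgfr3 were level in Mmp13-/- pulp, at 21.7% ± 1.04 and 21.1% ± 1.94 of the receptor level. As counted, Fgf2 at 63.9 ± 14.9 and Fgf7 at 65.8 ± 7.29 were then level.

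Fgfr1, at chr8:25513654-25575718 on the plus strand (GRCm38), encodes a receptor that is widely expressed in mesenchymal tissue. Its normalized counts were 22815, 22547 and 17138 in WT samples against 8296, 9828 and 7896 in Mmp13-/- samples. The genotypes were clearly apart, and WT replicate 5 was the WT sample nearest to the Mmp13-/- group. The level fell 2.40-fold in Mmp13-/- pulp (log2 fold change -1.26 ± 0.20 SE, edgeR adjusted p = 0.00075). With GC correction the fall was smaller at 1.5-fold (log2 fold change -0.59 ± 0.16, edgeR adjusted p = 0.024). Fgfr1 was the only member called lower in all 17 alternative analyses. An antisense gene, Gm16159, shares 164 exon bases with Fgfr1 and was lower too (log2 fold change -0.93, edgeR adjusted p = 0.0024, and -0.49 with GC correction, edgeR adjusted p = 0.041), and the sources used here do not state whether reads were counted by strand.

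Fgfr3 encodes the receptor known for restraining growth plate cartilage. It lies at chr5:33721674-33737068 on the plus strand and had 5039, 4627 and 4646 normalized counts in WT against 2341, 2220 and 2021 in Mmp13-/- samples. The samples of each genotype lay close together and the genotypes did not overlap. The level fell 2.17-fold (log2 fold change -1.12 ± 0.14, edgeR adjusted p = 0.00026), the smallest adjusted p among the 10 genes. This call was lost with GC correction (log2 fold change -0.24 ± 0.11, edgeR adjusted p = 0.11), where Fgfr3 exons, at 57.3% GC, stand among the GC-richer members. It was kept in 15 of the 17 alternatives, the exceptions being the GC correction with and without removal of background reads.

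The start of Fgfr3 lies inside the single exon of G630022F23Rik, an unconfirmed transcript on the opposite strand, and the genes share 998 exon bases, or 13.9% of the Fgfr3 exons. G630022F23Rik had 544.5 ± 49.98 normalized counts in WT and 202.5 ± 31.8 in Mmp13-/- samples and was called lower (log2 fold change -1.43 ± 0.17, edgeR adjusted p = 0.00016), a call that was lost with GC correction (-0.31 ± 0.18, edgeR adjusted p = 0.20). Reads of the shared bases cannot be assigned to a strand here, and their part in either value was not tested. The sequence before this start is shown because it precedes a receptor that was called as counted, though not with GC correction. It is at the same time exon of the opposite gene. The matching stretch before Fgfr2 is shown for a receptor that was not called in either analysis. Both run 5′ to 3′ on the strand of the named gene, from 250 to 51 bases before the RefSeq start (GRCm38.p6), and capitals mark GGGCGG or its reverse complement CCGCCC, the GC box, searched on both strands.
Fgfr3, chr5:33721474-33721673, plus strand: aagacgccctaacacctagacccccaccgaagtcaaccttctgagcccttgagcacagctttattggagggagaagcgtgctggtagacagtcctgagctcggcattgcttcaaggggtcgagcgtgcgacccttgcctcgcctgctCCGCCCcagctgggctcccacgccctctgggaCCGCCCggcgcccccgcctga
Fgfr2, chr7:130266859-130267058, minus strand: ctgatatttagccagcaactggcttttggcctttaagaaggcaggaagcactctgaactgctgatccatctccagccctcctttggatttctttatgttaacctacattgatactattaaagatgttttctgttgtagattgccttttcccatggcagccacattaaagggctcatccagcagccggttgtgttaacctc
The Fgfr3 window held 2 GC boxes, 14 CG dinucleotides and 65.0% GC. The Fgfr2 window held 0 GC boxes, 1 CG dinucleotide and 44.0% GC. Of 32851 RefSeq windows of this length, 24.6% held the motif, and the median window had 4 CG dinucleotides and 51.5% GC. Of the 10 members, 8 had an entry among the RefSeq promoters, and Fgfr1 did not. RefSeq lists 2 starts for Fgfr3, and the first was used. These letters are a description of the window and not of factor binding.

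Fgfr2 binds Fgf7 and Fgf10 through its epithelial splice form. It is annotated at chr7:130162451-133123350 on the minus strand, a long span because 1 annotated transcript runs into Ctbp2, with which Fgfr2 shares 314 exon bases. Its normalized counts were 3489, 4566 and 4070 in WT against 3603, 4412 and 3667 in Mmp13-/- samples, and the genotypes overlapped over nearly their whole range. The difference was close to 0 (log2 fold change -0.05, 95% interval -0.42 to 0.32, edgeR adjusted p = 0.81). With GC correction it turned to 0.34 (95% interval 0.04 to 0.63, edgeR adjusted p = 0.071), which was not called either.

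Fgfr4, at chr13:55152640-55168759, was the scarcest receptor. It had 78.9, 60.1 and 30.6 normalized counts in WT against 36.6, 35.3 and 87.3 in Mmp13-/- samples, with the highest value in Mmp13-/- replicate 6. The difference was not detectable at this depth (log2 fold change -0.13, 95% interval -1.13 to 0.87, edgeR adjusted p = 0.82), and it turned to 0.90 with GC correction (edgeR adjusted p = 0.20). In Mmp13-/- replicate 6 the receptor-gene background would give 17.0 of the 55.1 counts of Fgfr4.

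**Figure D2:**
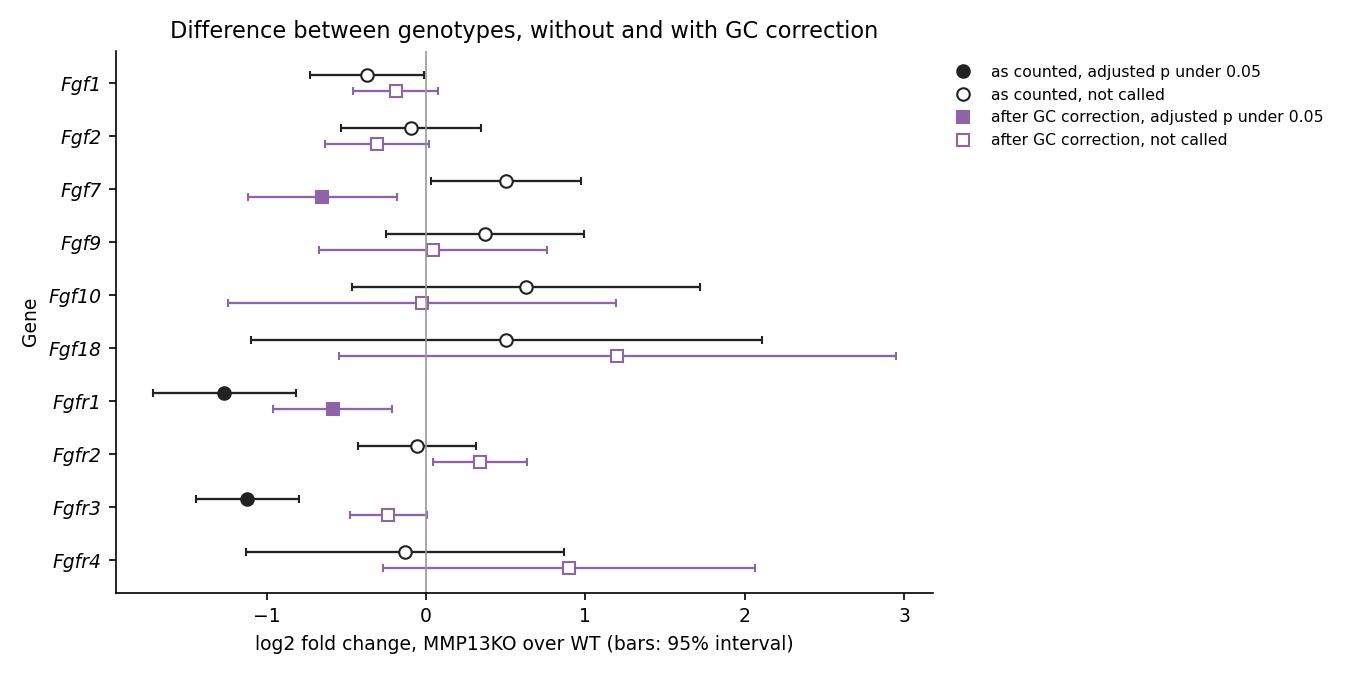
Log2 fold change of Mmp13-/- (MMP13KO) over WT for each of the 10 genes, as counted (circles) and after GC correction (squares), with 95% intervals, filled where the edgeR adjusted p was under 0.05. Fgfr1 lies below 0 in both, Fgfr3 is filled only as counted, and Fgf7 changes side.

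The make-up of the receptor pool was compared within each library, since a share does not depend on library scaling. Fgfr1 made up 68.5%, 67.4% and 62.3% of the summed level per kilobase of the 4 receptors in WT samples against 55.0%, 57.1% and 54.7% in Mmp13-/- samples. Its mean share was 66.0% ± 3.31 in WT and 55.6% ± 1.31 in Mmp13-/- pulp (SD, n = 3 each), a difference of -10.4 percentage points without overlap. The exact two-sided permutation test gave p = 0.1, the smallest that 3 against 3 samples allow (0.25 after Benjamini-Hochberg adjustment over 15 shares and ratios).

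The share of Fgfr2 was larger in Mmp13-/- pulp, though its level was not called different in either analysis. Shares within a library add up to a fixed total, so this is the other side of the lower Fgfr1 and Fgfr3 levels and not a separate result. It was 10.01%, 13.0% and 14.1% in WT against 22.9%, 24.5% and 24.3% in Mmp13-/- samples, again without overlap (exact permutation p = 0.1, adjusted 0.25). The share of Fgfr3 overlapped, at 21.1% ± 2.11 in WT and 19.5% ± 1.82 in Mmp13-/- pulp (exact permutation p = 0.5), and Fgfr4 lay at 0.310% to 1.69% in all 6 libraries. With GC correction the small difference in the Fgfr3 share turned, to 19.7% ± 2.14 in WT and 21.1% ± 1.94 in Mmp13-/- pulp (exact permutation p = 0.5).

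The ratio of Fgfr1 to Fgfr2 per kilobase was 6.84, 5.17 and 4.40 in WT against 2.41, 2.33 and 2.25 in Mmp13-/- samples. On the log2 scale the ratio differed by -1.21 (exact permutation p = 0.1). The ratio of Fgfr3 to Fgfr2 was 2.08, 1.46 and 1.65 in WT against 0.938, 0.726 and 0.795 in Mmp13-/- samples, a log2 difference of -1.07 (exact permutation p = 0.1). The ratio of Fgfr1 to Fgfr3 differed less, with values of 3.28, 3.53 and 2.67 against 2.57, 3.21 and 2.83, which overlapped. GC correction moved these relations less than it moved the fold changes of Fgfr1 and Fgfr3. After GC correction the Fgfr1 share was 66.1% ± 3.61 in WT and 56.1% ± 1.41 in Mmp13-/- pulp, and the log2 difference in the ratio to Fgfr2 was -0.91 for Fgfr1 and -0.57 for Fgfr3, both with an exact permutation p of 0.1 and without overlap.

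**Figure D3:**
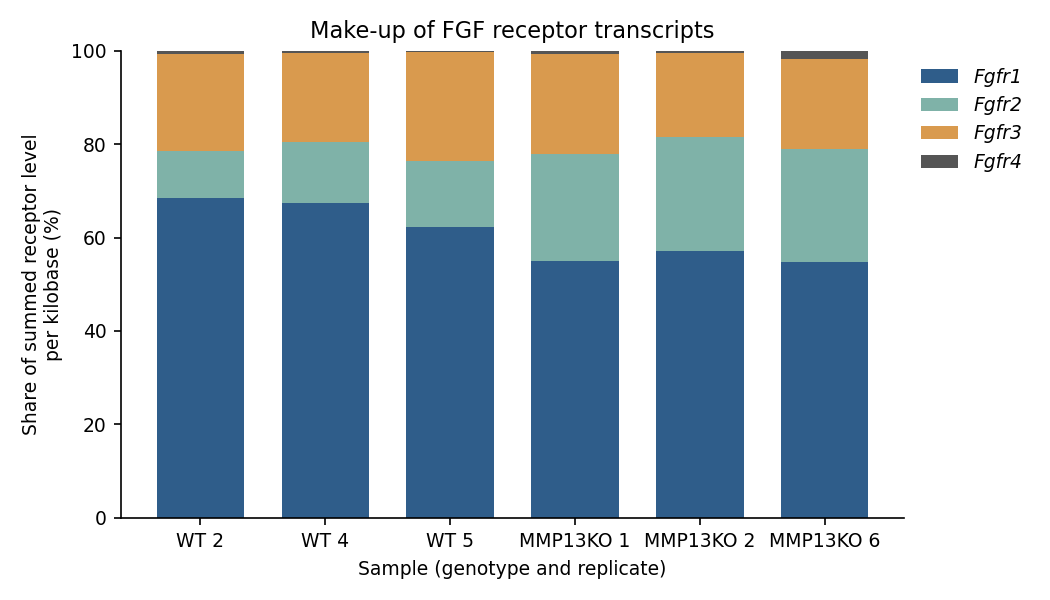
Share (%) of each receptor in the summed level per kilobase of exon of the 4 FGF receptors, 1 bar per sample, stacked from Fgfr1 at the base to Fgfr4 at the top. Fgfr1 takes 62.3% or more of each WT bar and 57.1% or less of each Mmp13-/- bar (MMP13KO).

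None of the 6 ligands was called in the edgeR test. At an unadjusted p under 0.05, 2 of them passed, Fgf1 and Fgf7, and DESeq2 and limma each called 0. Fgf1, which binds all FGF receptors, is on chromosome 18 (38838673 to 38929472, minus strand) and was the most abundant ligand. Its normalized counts were 1087, 1076 and 925.3 in WT against 791.3, 939.3 and 654.0 in Mmp13-/- samples. Only Mmp13-/- replicate 2 reached into the WT range, and the difference missed the threshold (log2 fold change -0.37 ± 0.16, edgeR adjusted p = 0.079), also with GC correction (-0.19 ± 0.12, edgeR adjusted p = 0.23).

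Fgf2, the basic FGF that is held in the extracellular matrix, is at chr3:37348346-37410108. It had 535.1, 452.7 and 402.6 normalized counts in WT against 482.8, 500.3 and 316.9 in Mmp13-/- samples, which overlapped. The log2 fold change was -0.09 (95% interval -0.53 to 0.35, edgeR adjusted p = 0.72) and -0.31 with GC correction (edgeR adjusted p = 0.13). As counted without Mmp13-/- replicate 6, the lowest sample, it was 0.09. Nudt6 on the opposite strand shares 640 of the exon bases of Fgf2, 9.44% of them, and was not called (log2 fold change -0.73, edgeR adjusted p = 0.089, and -0.14 with GC correction).

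Fgf7, also called keratinocyte growth factor, is a mesenchymal ligand that acts on epithelium, at chr2:126034658-126091185. Its normalized counts were 143.9, 118.4 and 191.4 in WT against 190.5, 237.8 and 213.2 in Mmp13-/- samples. A single pair of values overlapped, WT replicate 5 and Mmp13-/- replicate 1. As counted, the log2 fold change was 0.50 ± 0.21 (edgeR adjusted p = 0.071), and with GC correction it was -0.65 ± 0.20 and called (edgeR adjusted p = 0.038). Fgf7 exons hold 39.2% GC, the lowest of the 10 genes. Fgf7 was called higher in 5 of the 17 alternatives and lower in 2, both with GC correction, so its direction rests on that choice.

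Fgf9, a ligand known from the epithelium of the developing tooth, lies at chr14:58070547-58112720. Its normalized counts were 78.6, 64.5 and 94.4 in WT against 69.6, 118.3 and 121.6 in Mmp13-/- samples, so the genotypes overlapped (log2 fold change 0.37, 95% interval -0.25 to 0.99, edgeR adjusted p = 0.29), and the difference was 0.05 with GC correction. Fgf10, at chr13:118669791-118792115, had 60.9, 35.7 and 14.0 normalized counts in WT against 69.9, 35.8 and 66.6 in Mmp13-/- samples. WT replicate 5 was the lowest and the rest were mixed (log2 fold change 0.63, 95% interval -0.46 to 1.72, edgeR adjusted p = 0.31), and the difference was -0.02 with GC correction. In Mmp13-/- replicate 6 the receptor-gene background would give 22.1 of the 42.0 counts of Fgf10 and 22.3 of the 76.8 counts of Fgf9. It would also give 5.69 of the 12.1 counts of Fgf18 there. Fgf18, a ligand of skeletal and cartilage cells that acts through Fgfr3 among others, at chr11:33117430-33147400, had the fewest counts, with 13.6, 21.03 and 4.17 normalized counts in WT against 6.19, 29.6 and 19.2 in Mmp13-/- samples. The interval of its log2 fold change ran from -1.10 to 2.11 (edgeR adjusted p = 0.58), and the value was 1.20 with GC correction (edgeR adjusted p = 0.25), so that neither a rise nor a fall was detectable at this depth.

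Within the ligand pool per kilobase, Fgf1 made up 54.7%, 58.0% and 53.8% in WT against 46.7%, 45.6% and 41.4% in Mmp13-/- samples, without overlap. Fgf7 made up 12.2%, 10.7% and 18.7% in WT against 18.9%, 19.4% and 22.7% in Mmp13-/- samples, with WT replicate 5 just below the lowest Mmp13-/- sample. Both had an exact permutation p of 0.1 (adjusted 0.25). Neither difference held with GC correction, where Fgf1 was at 49.4% ± 2.26 in WT and 50.3% ± 3.21 in Mmp13-/- pulp (exact permutation p = 0.8) and Fgf7 turned to 19.6% ± 5.34 and 14.4% ± 1.69 (exact permutation p = 0.2). As counted, the share of Fgf2 was 20.1% ± 1.46 in WT and 19.6% ± 3.39 in Mmp13-/- pulp (exact permutation p = 0.9).

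Of the 12 other secreted FGF genes, 5 passed the filter and 0 were called by edgeR, at an unadjusted p under 0.05 as well as by DESeq2 and limma. The highest per kilobase in WT was Fgf22, with 66.6 ± 30.5 normalized counts in WT and 37.2 ± 19.8 in Mmp13-/- pulp (log2 fold change -0.85, edgeR adjusted p = 0.16), and its difference turned to 0.19 with GC correction (edgeR adjusted p = 0.80). Without Mmp13-/- replicate 6, Fgf8 passed the filter, on 9.72 and 20.4 counts against 2, 1.17 and 0 in WT, too few for a fold change. The receptor-gene background would give 2.03 and 2.37 of the Mmp13-/- counts. Because Fgf8 passed through the Mmp13-/- samples alone, it could only be called as higher, and its call (edgeR adjusted p = 0.0060) is not read as a result. The FGF homologous factors, relatives that stay inside the cell and bind sodium channels, moved apart, with 1 of 4 called higher and 2 called lower, against 51.6% of all genes called and 24.3% called lower, a list too small to set against these shares. Fgf14 rose from 31.0 ± 5.30 to 130.0 ± 33.6 normalized counts (log2 fold change 2.05, edgeR adjusted p = 0.00038) and Fgf13 fell from 405.9 ± 21.6 to 194.0 ± 13.6 (-1.07, edgeR adjusted p = 0.00037). Both calls held with GC correction (1.38 and -1.09). Fgf11 fell as counted (-0.69, edgeR adjusted p = 0.025) and was not called with GC correction.

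Of 18 genes for co-receptors and binding proteins, 4 were called higher and 10 lower, with a median log2 fold change of -0.66 beside 0.10 over all genes tested. Hspg2, which encodes the basement membrane proteoglycan perlecan, fell from 41747 ± 3728 to 13464 ± 874 normalized counts (log2 fold change -1.63, edgeR adjusted p = 0.00021). Gpc1, a cell surface heparan sulfate proteoglycan and the highest of the list per kilobase in WT, fell from 17569 ± 1738 to 5452 ± 1190 (-1.69, edgeR adjusted p = 0.00024). Fgfrl1, an FGF receptor without a kinase domain, fell from 899.4 ± 25.6 to 410.3 ± 51.7 (-1.13, edgeR adjusted p = 0.00023). With GC correction 2 were called higher and 3 lower and the median was -0.09, Hspg2 and Gpc1 were still called (-0.51 and -0.72), and Fgfrl1 was not (-0.04, edgeR adjusted p = 0.82). The 2 called higher were Gpc3 and Kl (0.68 and 3.25), both called higher as counted too (0.71 and 3.03). Kl had only 22.0, 12 and 2 counts in WT and passed the filter through the Mmp13-/- samples.

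Of 19 genes that build or edit heparan sulfate, 4 were called higher and 10 lower (median -0.57). Among the 4, Ndst3 passed the filter through the Mmp13-/- samples. It had 2, 2.19 and 14.3 counts in WT against 29.5, 45.2 and 57.2. The receptor-gene background would give 14.8, 17.3 and 47.4 of the latter. With background subtraction Ndst3 was not called (edgeR adjusted p = 0.075). Extl1, an exostosin-like glycosyltransferase, fell from 946.9 ± 37.1 to 351.7 ± 30.6 normalized counts (log2 fold change -1.43, edgeR adjusted p = 8.5e-05). The sulfotransferase gene Hs3st3a1 fell by 1.73 on the log2 scale (edgeR adjusted p = 0.00018), and Ndst1, an N-deacetylase and N-sulfotransferase and the highest of this list, fell from 4994 ± 474 to 2399 ± 260 (-1.06, edgeR adjusted p = 0.00054). These 3 were also called lower with GC correction (-0.54, -1.09 and -0.43), when the list had 6 called lower. The 3 called higher with GC correction were Extl2, Sulf1 and Ndst3 (0.56, 0.78 and 2.76), each called higher as counted too.

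Of 25 genes for adaptors and signal relay, 3 were called higher and 13 lower (median -0.66). The adaptor Shb fell from 640.8 ± 21.1 to 271.5 ± 27.2 normalized counts (log2 fold change -1.24, edgeR adjusted p = 0.00016), the kinase Map2k2 from 3224 ± 154 to 1336 ± 152 (-1.27, edgeR adjusted p = 0.00016) and the docking protein Gab1 from 1987 ± 182 to 1034 ± 102 (-0.94, edgeR adjusted p = 0.00060). Ptpn11, the phosphatase SHP2 and the highest of the list per kilobase, fell from 5952 ± 474 to 3015 ± 499 (-0.98, edgeR adjusted p = 0.0013). With GC correction, 1 was called higher and 10 lower (median -0.22), with Gab1, Ptpn11 and Map2k2 among them (-0.52, -0.63 and -0.28) and Shb not. Grb14, Sos1 and Pik3ca were among the 10 but were not called as counted, where Pik3ca lay at 0.10 (edgeR adjusted p = 0.59).

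Of 19 feedback and target genes, 18 were in the table and were tested, and 1 was called higher and 10 lower (median -0.46). The Sprouty genes, whose products inhibit receptor tyrosine kinase signalling, were among the lower ones. Spry1 fell from 586.1 ± 75.8 to 240.3 ± 17.6 normalized counts (log2 fold change -1.29, edgeR adjusted p = 0.00020) and Spry2 from 353.1 ± 35.3 to 119.4 ± 25.3 (-1.55, edgeR adjusted p = 0.00023). Spred2, a related inhibitor, fell from 691.8 ± 83.5 to 315.5 ± 30.1 (-1.13, edgeR adjusted p = 0.00031). All 3 were called lower with GC correction as well (-0.47, -1.71 and -0.72), when 4 of the 18 were called, all lower. The other was Spred1 (-0.62 with GC correction), which as counted lay at 0.13 and was not called (edgeR adjusted p = 0.55). Pea15a, the highest of the list per kilobase in WT, had 1324 ± 147 and 1129 ± 187 normalized counts and was not called (edgeR adjusted p = 0.27). Pea15a counts among the 18, but whether it is a target of FGF signalling was not tested here.

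Across these 4 larger lists, the share called lower was above that of all genes, which was 24.3% as counted and 13.3% with GC correction. For the co-receptor list with GC correction, the 3 of 18 called lower lay near that 13.3%. Called in either direction with GC correction were 5 of 18 co-receptor and 4 of 18 feedback genes, below the 36.0% of all genes. The heparan sulfate and signal relay lists, at 9 of 19 and 11 of 25, lay above it, and the 9 include Ndst3 with its high background. The list medians lay below that of all genes (0.10 as counted and 0.19 with GC correction) in both analyses. The median of all genes as counted includes scarce genes, and was 0.03 for genes with at least 10 counts in every sample. The lists were chosen with earlier results of these data known, so the comparison with all genes is not a test of them. These counts describe the lists, and many of the genes serve other receptors too.

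**Figure D4:**
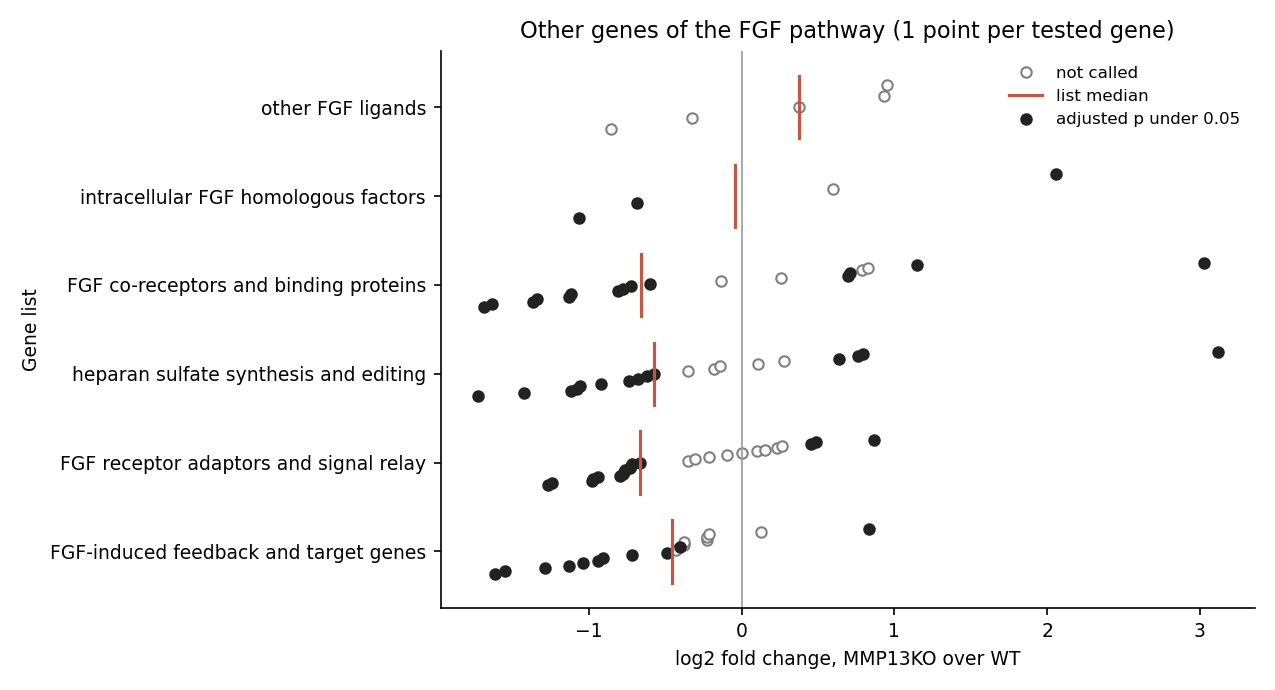
Log2 fold change of Mmp13-/- (MMP13KO) over WT for every tested gene of 6 FGF pathway lists, as counted, with filled points for an edgeR adjusted p under 0.05 and a bar at each list median. The 4 lower lists have medians between -0.66 and -0.46, and the other FGF ligands hold no filled point.

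Fgfr3, the member with the smallest adjusted p, was set beside 10793 other well expressed genes by the root mean squared difference in log2 CPM over the 6 samples, each gene centred on its WT mean. The most similar were Syngr2, a vesicle membrane protein, at 0.029, Ephb4, an ephrin receptor kinase, at 0.042, and Slc25a10, a mitochondrial carrier, at 0.048. The next gene stood at 0.051 and the gene at rank 100 at 0.10, so that many genes had nearly the same pattern as Fgfr3 and the likeness was not particular to these 3.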

How the data were processed

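Gene expression had been measured in the dental pulp of 3 WT mice and 3 Mmp13-/- mice. The authors aligned the reads and quantified genes in Strand-NGS, and deposited estimated counts per gene with fractions, as well as log2 values that they normalized by size factors and centred on each gene's median. The submitters' processing notes name mm10 and DESeq. The aligner settings, annotation release and strand setting are not given in the sources used here. The deposited columns of fold changes and p-values were not used.

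Samples were grouped by the genotype label, without pairing. Expected counts were rounded, then tested with edgeR 4.0.16 under R 4.3.3 (TMM factors, filterByExpr, quasi-likelihood test, Benjamini-Hochberg over 24534 genes), and a gene was called at an adjusted p under 0.05. Normalized counts are counts divided by the effective library and multiplied by its mean. Exon lengths, GC content and positions came from GENCODE M21 (GRCm38), which matched 99.8% of genes. GC correction used a loess fit per library (span 0.4) as offsets, and background was set by odorant and vomeronasal receptor genes. Shares and ratios were compared with exact permutation tests. The study describes the replicates as independent biological samples, and p-values measure the spread between these 3 and 3 samples. Alternatives were DESeq2 1.42.0, limma 3.58.1 on the deposited log2 values, the gene-by-gene procedure of the study, other scalings and filters, and each sample left out in turn. The scripts were tested on simulated data. Named genes of each list were the 3 called with the smallest adjusted p and the highest per kilobase in WT. Others were named where they qualify a count or a direction. The members and lists were chosen with earlier results of these data known. Intervals cover counting error and the spread between samples, not differences in dissection.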

Additional observations from a re-analysis of the deposited data

How the results depend on the processing

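The fall of Fgfr1 was called in 17 of 17 alternatives and that of Fgfr3 in 15, the log2 fold change of Fgfr3 being -0.24 with GC correction and -0.21 with GC correction and background subtraction together, an alternative chosen after seeing the data. The number of receptors called was 1 in these alternatives, and 2 in all others. The number of ligands called was 1 with GC correction, background subtraction, both together, upper-quartile factors, no filter or at least 10 counts in every sample, 2 with the study's procedure, and 0 to 1 with a sample left out. Fgf7 was called higher in 5 alternatives and lower in the 2 with GC correction, and Fgf1 was called lower in 3. Leaving out Mmp13-/- replicate 2 brought Fgf1 past the threshold (log2 fold change -0.56) and leaving out WT replicate 5 brought Fgf7 past it (0.63). Among all genes, 12665 were called, and 7660 with background subtraction and GC correction, 19292 with no filter (49715 genes tested), 22979 with the study's procedure and 10915 to 12864 with a sample left out. Of the 12665, 6710 were higher, and of the 12787 with upper-quartile factors 8169 were, of the 9957 with library totals 6892, of the 8826 with GC correction 5572. The median over all genes moved by 0.21 with upper-quartile factors, 0.11 with library totals, 1.20 with no filter and 0.54 with the study's procedure.

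Among members not called as counted, directions turned as follows, and the cause was not tested. With GC correction Fgf7 was at -0.65, Fgf10 at -0.0234, Fgfr2 at 0.34 and Fgfr4 at 0.90, and with background subtraction added Fgf7 was at -0.69, Fgf9 at -0.16, Fgf10 at -0.46, Fgfr2 at 0.37 and Fgfr4 at 0.57. Background subtraction alone put Fgfr2 at 0.10. A minimum of 10 counts put Fgf2 at 0.0288 and Fgfr2 at 0.0697, library totals put them at 0.0573 and 0.0619, and upper-quartile factors put Fgf2 at 0.10, Fgfr2 at 0.15 and Fgfr4 at 0.12. With a sample left out, Fgf2 ranged from -0.26 to 0.0884, Fgf18 from -0.14 to 1.01, Fgfr2 from -0.22 to 0.0013 and Fgfr4 from -0.65 to 0.11, the last at -0.65 without Mmp13-/- replicate 6. The difference in the Fgfr1 share ranged from -12.3 to -9.20 points with a sample left out, and was -11.4 without division by length, -10.1 with background subtraction and -10.05 with GC correction, the last chosen after seeing the data, as was the GC correction of the ligand shares. Fgf18 was not tested under the minimum of 10 counts. No paired analysis was possible because the genotypes share only the replicate number 2. Depth limits Fgf10, Fgf18 and Fgfr4, the 3 members with the fewest counts.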
